A study of Mus musculus with 6 samples.

Results

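Oxidative phosphorylation genes, encoded in mitochondrial and in nuclear DNA, were followed across 4 total RNA libraries of mouse LSK cells. They were chosen by gene name alone: the mitochondrial mt-Nd, mt-Co, mt-Cytb and mt-Atp genes and the nuclear Nduf, Sdh, Uqcr, Cox4 to Cox8 and Atp5 genes, without 2 names that end as pseudogenes. The choice gave 101 of 14468 genes listed in at least 1 library, 13 of them mitochondrial and 88 nuclear. The nuclear members held 78 subunits, 7 complex I assembly factors (Ndufaf1 to Ndufaf7), the supercomplex factor Cox7a2l, and Atp5s and Atp5sl, which are not subunits of the ATP synthase despite their names. Where members are grouped by complex, the assembly factors are counted in complex I, Cox7a2l in complex IV, and Atp5s and Atp5sl in complex V. All 4 libraries listed 97 members, and mt-Nd4l, Cox4i2, Atp5g2 and Atp5k were missing from at least 1. LSK cells are the lineage-negative, Sca-1 and c-Kit positive bone marrow cells among which blood stem cells and early progenitors are found. The study compared Setd2 knockout (KO) with wild-type (WT) LSK cells, Setd2 being a histone methyltransferase.

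The groups were old KO, sorted 8 months after pI-pC induction of the Setd2 deletion, old WT at the same 8 months, young KO at 4 weeks after induction, and young WT at 4 weeks. All were C57BL/6, and the labels time the WT cells from pI-pC as well. Each group was 1 library, so no value has a replicate check, and neither an SD nor a test between groups is given. The gene that drives the recombinase, the exons that the deletion removes and the number of mice behind a library are not given in the sources used here. The whole genome bisulfite samples of young cells were not analysed here.

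Oxidative phosphorylation passes electrons from NADH through complex I, or from succinate through complex II, to coenzyme Q, then through complex III and cytochrome c to complex IV, which reduces oxygen. Complexes I, III and IV pump protons, and complex V, the ATP synthase, makes ATP from their return. Complex II is wholly nuclear in origin, while the others join core proteins made from mitochondrial DNA to nuclear ones. Mitochondrial genes are transcribed as long precursors from both strands and then cut apart, whereas each nuclear subunit gene has its own promoter. Adult blood stem cells are known to rely on glycolysis more than their progeny do.

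Values are FPKM, fragments per kilobase of transcript relative to library size, scaled so that the libraries share a common median ratio. A difference is taken between log2(scaled FPKM + 1) of KO and WT, or of old and young, which understates changes of low genes. A gene counted as measured in a comparison when it reached 1 in at least 1 of the 2 libraries. Files list no value below 0.5, and an unlisted gene was set to 0.5. From the spacing of low values, a 0.5 kb transcript at FPKM 5 stood for about 45.1 counted units in old KO, 44.6 in old WT, 22.6 in young KO and 24.0 in young WT. Counting error alone at that level gives a 95% factor between a pair of libraries of 1.51 in the old ones, 1.79 in young KO and 1.76 in young WT, and it does not cover variation between mice or duplicate reads. The unit was taken as 2 steps of the spacing in young and 1 in old libraries, so young and old values were spaced differently, and this cannot be told apart from age.

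Setd2 itself had 15.6 FPKM in old KO, 15.3 in old WT, 12.3 in young KO and 14.1 in young WT. A value over the whole gene does not check a deletion of some exons, so every KO direction below rests on the labels. Kit had 41.3, 44.5, 52.8 and 60.7 FPKM in old KO, old WT, young KO and young WT, and Ly6a, the gene of Sca-1, had 4.197, 8.80, 3.16 and 4.84. Both genes that define the sort were therefore listed in every library. Markers of other blood cells also differed. Summed FPKM of 13 neutrophil and monocyte markers was 2331 in old KO, 1289 in old WT, 871 in young KO and 973 in young WT. The 11 plasma and B cell markers summed to 222, 2212, 64.9 and 53.4 FPKM in the same order. The 14 erythroid markers summed to 254, 354, 808 and 365 FPKM. The 10 markers of LSK and stem cells stayed between 184 in old KO and 217 in young WT, and 7 markers of other cells ran between 93.8 in old KO and 504 in young WT. S100a9, Camp, Ltf and Ngp of the neutrophil list, and Cd79a, Prdm1 and Tnfrsf17 of the plasma and B cell list, were in neither young file, while every erythroid marker was in all 4. In bulk RNA, fewer cells of a type and less RNA per cell cannot be told apart. Xist had 280 FPKM in old KO and 291 in old WT and was in neither young file, while Eif2s3y, a Y chromosome gene, had 11.9 in young KO and 9.88 in young WT and was in neither old file. Age and sex therefore cannot be told apart.

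Promoter sequences came from RefSeq (GRCm38.p6), each with 250 bases before and 50 after a gene start. Of 88 nuclear members 74 were matched by symbol, or else by synonym, to windows within 1000 bases of their locus, 6 with more than 1 window. The listed genes set beside them below were matched by symbol alone, without a check of locus. Words bound by known regulators of respiratory genes were searched on both strands: GCGCANGCG for NRF1, CCGGAAG for ETS factors such as GABP, and AAGATGGC for YY1. No word contains another. An NRF1 word lay in the promoters of 22 of 74 members (29.7%), against 7.03% of 27025 genes in the table and 15.3% of 9470 genes listed in these libraries. The ETS word lay in 17 (23.0%), against 9.93% and 20.4%, and the YY1 word in 11 (14.9%), against 3.19% and 5.40%. At least 1 word was found for 42 members (56.8%), against 17.8% of the table and 35.3% of listed genes. By complex, that share was 55.3% of 38 genes in complex I, 3 of 3 in complex II, 3 of 5 in complex III, 25.0% of 12 in complex IV and 75.0% of 16 in complex V. A word is a match of letters and not a measured binding site.

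Shown are the promoters of 4 members to which the results return: Cox8a, the nuclear member of highest level; Ndufs6, the nuclear member with a 2-fold KO difference; and Ndufs4 and Sdhd, lower in KO at both ages. They are printed on the coding strand, 5′ to 3′, with the searched words in capitals. Cox8a (chr19:7217567-7217866, minus strand) holds the ETS word at 5 bases before the start and again from base 33 after it. Ndufs6 (chr13:73328433-73328732, minus strand) holds an NRF1 word 15 bases before its start and a YY1 word from base 34. Ndufs4 (chr13:114388045-114388344, minus strand) holds a YY1 word from base 36. Sdhd (chr9:50603800-50604099, minus strand) holds an NRF1 word 79 bases before its start and an ETS word 46 bases before it. All 4 windows hold a word, which only 42 of 74 matched members do. Cox7c, to which the results also return, holds none of the words and is not printed.
Cox8a: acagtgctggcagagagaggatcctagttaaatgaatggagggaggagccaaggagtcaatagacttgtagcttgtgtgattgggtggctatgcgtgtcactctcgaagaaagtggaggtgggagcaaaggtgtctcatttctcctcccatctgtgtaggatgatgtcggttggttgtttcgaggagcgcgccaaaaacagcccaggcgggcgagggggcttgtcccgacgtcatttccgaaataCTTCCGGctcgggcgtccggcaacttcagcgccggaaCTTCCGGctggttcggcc
Ndufs6: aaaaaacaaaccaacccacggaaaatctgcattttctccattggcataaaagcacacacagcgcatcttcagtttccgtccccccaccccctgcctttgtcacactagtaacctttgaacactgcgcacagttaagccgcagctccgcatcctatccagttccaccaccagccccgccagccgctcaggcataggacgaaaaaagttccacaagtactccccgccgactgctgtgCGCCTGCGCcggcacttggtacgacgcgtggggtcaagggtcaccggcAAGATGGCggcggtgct
Ndufs4: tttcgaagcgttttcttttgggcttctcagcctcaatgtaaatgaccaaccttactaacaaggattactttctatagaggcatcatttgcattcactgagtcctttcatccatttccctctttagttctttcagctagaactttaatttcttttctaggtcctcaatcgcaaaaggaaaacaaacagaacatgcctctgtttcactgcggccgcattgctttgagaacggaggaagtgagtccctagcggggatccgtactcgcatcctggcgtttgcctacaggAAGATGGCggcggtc
Sdhd: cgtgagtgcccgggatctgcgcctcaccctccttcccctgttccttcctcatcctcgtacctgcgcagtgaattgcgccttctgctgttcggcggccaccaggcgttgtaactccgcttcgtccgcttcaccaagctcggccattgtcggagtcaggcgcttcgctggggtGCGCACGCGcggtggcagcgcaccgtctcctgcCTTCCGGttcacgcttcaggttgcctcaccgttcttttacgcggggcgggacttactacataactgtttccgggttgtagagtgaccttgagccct

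Among the mitochondrial genes the cytochrome c oxidase (complex IV) core genes stood highest. mt-Co1 (MT, 5328 to 6872, mm10), the catalytic core of complex IV, had 2810 FPKM in old KO, 2410 in old WT, 1492 in young KO and 1643 in young WT. mt-Co3, a core subunit, had 2093 in old KO, 1495 in old WT, 318 in young KO and 365 in young WT. mt-Co2, which takes electrons from cytochrome c, had 534, 685, 216 and 211 FPKM in that order. All 3 were higher in each old library than in each young one. Together they made 92.3% of the summed mitochondrial FPKM in old KO, 91.0% in old WT, 75.8% in young KO and 69.7% in young WT.

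Most of the 7 complex I genes of mitochondrial DNA, which encode its proton-pumping membrane arm, were lower in old than in young libraries, mt-Nd3 as deposited being the exception. mt-Nd1 had 75.5 FPKM in old KO, 49.7 in old WT, 97.1 in young KO and 139 in young WT. mt-Nd2 had 15.4 in old KO, 16.4 in old WT, 47.0 in young KO and 51.1 in young WT. mt-Nd4 had 52.2, 40.7, 78.6 and 98.8 in the same order. For each of these genes both young libraries lay above both old ones. mt-Nd5 had 22.1 FPKM in old KO, 20.4 in old WT, 44.7 in young KO and 57.2 in young WT. mt-Nd6, the protein gene on the other strand, had 40.5 in old KO, 53.1 in old WT, 132 in young KO and 167 in young WT. Its range, MT 13552 to 14070, shares 14 bases with mt-Nd5, and the use of strand and the counting rule are not given in the sources used here.

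mt-Nd3 was the lowest listed mitochondrial gene in each library, with 13.9 FPKM in old KO, 9.82 in old WT, 6.47 in young KO and 7.59 in young WT. Counting error alone was 10.9%, 12.9%, 22.4% and 19.2% of these values in that order. mt-Nd4l was listed at 62.2 FPKM in old WT and 126 in young WT and in neither KO file. mt-Nd4l and mt-Nd4 are read from 1 RNA and their ranges share 7 bases, while mt-Nd4 was listed in all 4 libraries. The absence of mt-Nd4l in KO was not matched by mt-Nd4, which had 52.2 FPKM in old KO against 40.7 in old WT.

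mt-Cytb, the mitochondrial core gene of complex III, had 148 FPKM in old KO, 130 in old WT, 116 in young KO and 154 in young WT. The ATP synthase gene mt-Atp8 had 65.2, 52.0, 98.3 and 127 FPKM, and mt-Atp6, which forms part of its proton channel, had 21.4, 18.7, 27.8 and 39.3. mt-Atp8 and mt-Atp6 share an RNA and 43 bases, yet as deposited mt-Atp8 stood 3.04, 2.77, 3.54 and 3.22 times as high as mt-Atp6 in old KO, old WT, young KO and young WT. A chromosome 1 locus described below pairs with mt-Atp6, and none is listed for mt-Atp8. With that locus added per length, mt-Atp6 had 40.3 FPKM in old KO and 34.6 in old WT, below mt-Atp8. In young KO and young WT it then had 147 and 212, above mt-Atp8. As deposited, mt-Co3, next along the DNA, stood 97.6 and 79.8 times as high as mt-Atp6 in old KO and old WT, against 11.5 and 9.27 times in young KO and young WT. The mt-Co3 to mt-Atp6 ratio thus differed more between ages than between genotypes. The ratio of mt-Nd6 to mt-Nd5 was 1.83 in old KO and 2.60 in old WT, against 2.94 in young KO and 2.92 in young WT, so old KO stood apart from the other 3 libraries. The mitochondrial ribosomal RNA genes mt-Rnr1 and mt-Rnr2 are named in none of the 4 files.

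**Figure D1:**
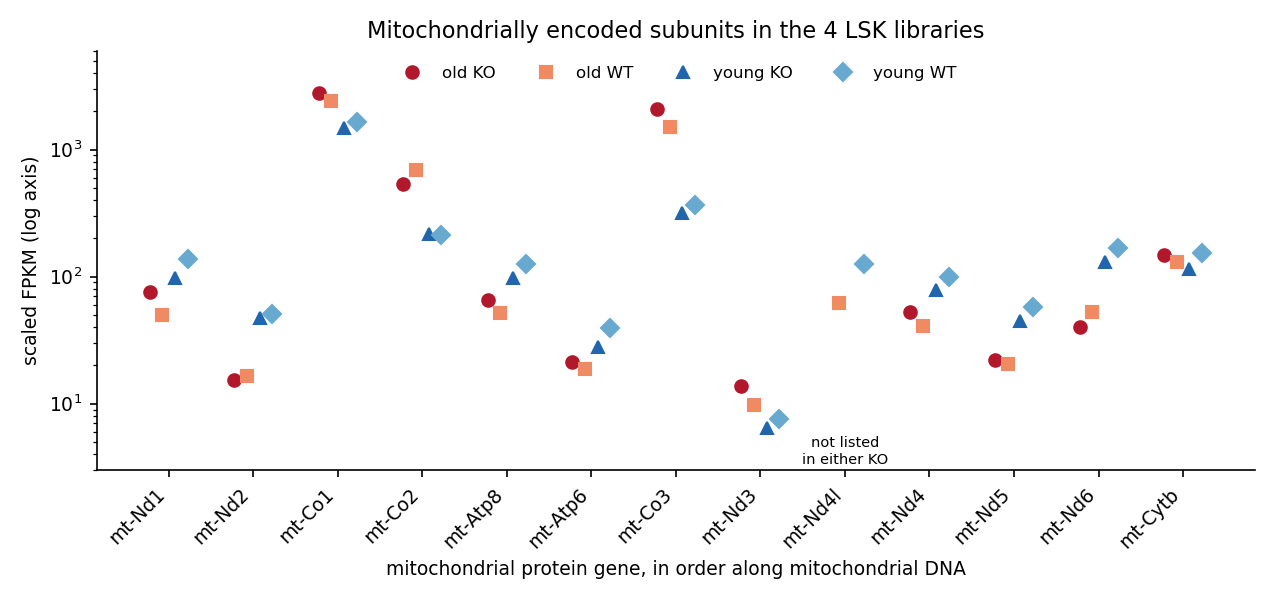
Scaled FPKM (vertical, log axis) of the 13 mitochondrial protein genes in their order along mitochondrial DNA (horizontal), 1 symbol per library in the order old KO, old WT, young KO, young WT. The 3 mt-Co genes lie highest, and mt-Nd1, mt-Nd2, mt-Nd4, mt-Nd5 and mt-Nd6 are lower in both old than in both young libraries; mt-Nd4l has no symbol in KO.

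A nuclear stretch laid out like mitochondrial DNA bears on these values. On chromosome 1, from 24611535 to 24616197 (mm10), 7 listed loci follow each other with the spacing of mitochondrial genes between MT positions 6381 and 11043, 6 of them starting within 1 base of the gene start. The other, Gm29216, starts 1053 bases into mt-Co1 and ends where it ends. They pair Gm29216 with mt-Co1, Gm28661 with mt-Co2, Gm10925 with mt-Atp6, Gm28437 with mt-Co3, Gm28438 with mt-Nd3, Gm10222 with mt-Nd4l and Gm28439 with mt-Nd4. The rules for reads that match both places are not given in the sources used here, and values of these genes are uncertain. The 7 loci summed to 616 FPKM in old KO, 497 in old WT, 1105 in young KO and 1425 in young WT. Gm10222, paired with mt-Nd4l, had 14.9 in old KO, 15.5 in old WT, 107 in young KO and 142 in young WT, so it was listed where mt-Nd4l was not.

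Gm10925 had 18.9 FPKM in old KO, 15.9 in old WT, 120 in young KO and 173 in young WT, in the young libraries well above mt-Atp6 itself. Gm28437 had 337, 255, 386 and 452 FPKM in that order, below mt-Co3 in the old libraries and above it in the young ones. All 7 loci were lower in old than in young cells, with median differences of -1.36 in KO and -2.99 in WT. The span overlaps 8 mitochondrial genes, and mt-Nd1, mt-Nd2, mt-Nd5, mt-Nd6 and mt-Cytb lie outside it. As an alternative, a choice made after the values were seen, each locus was added per length to its gene. In both KO libraries, where mt-Nd4l is not listed, its value was then that of Gm10222 alone. Between old WT and young WT mt-Nd3 then turned to -0.848, and mt-Co1, mt-Co2 and mt-Co3 differed by 0.481, 0.809 and 1.099. mt-Atp6 differed by -2.58 there and by -1.84 between old KO and young KO. Which reads belong to which place was not tested.

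**Figure D2:**
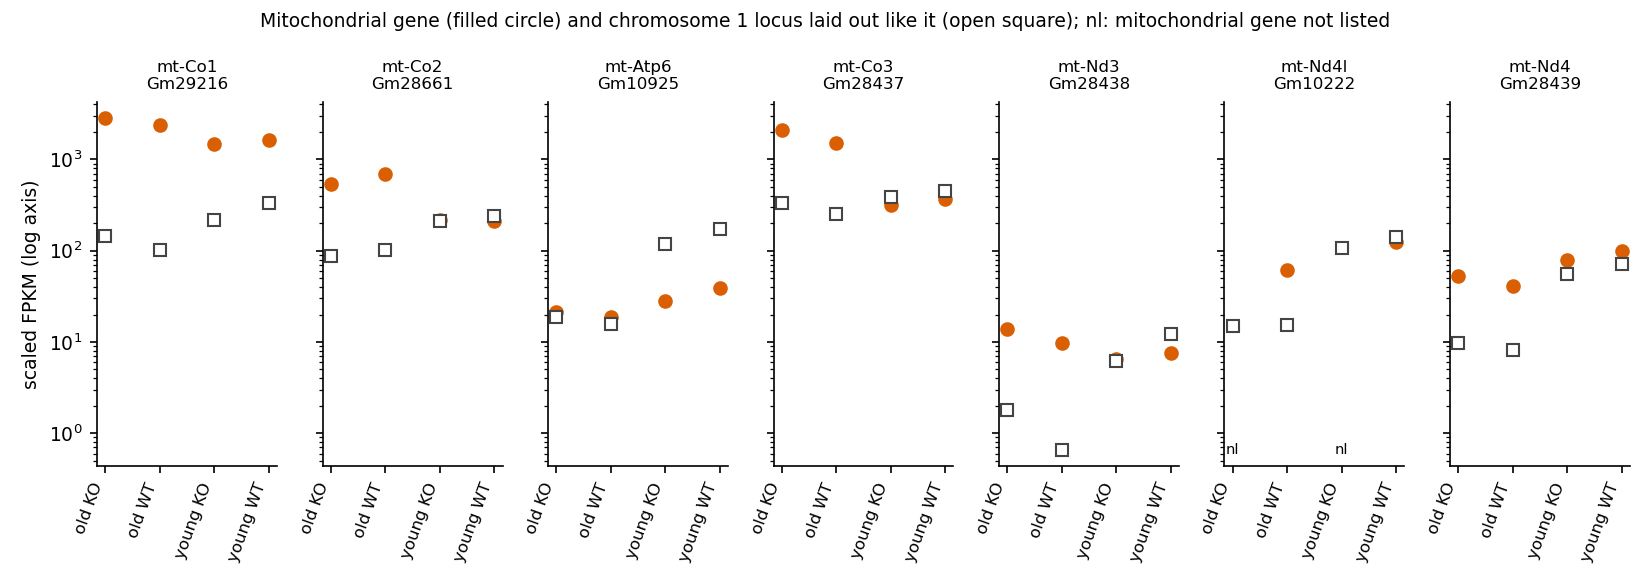
Scaled FPKM (vertical, log axis) of 7 mitochondrial genes (filled circles) and of the chromosome 1 locus laid out like each (open squares), by library. The loci sum to 616 and 497 FPKM in old KO and old WT, against 1105 and 1425 in young KO and young WT, and mt-Nd4l is not listed (nl) in KO.

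Nuclear members spanned a wide range of levels within each complex. Their median level was 10.6 FPKM in old KO, 10.8 in old WT, 8.15 in young KO and 7.35 in young WT. In complex I the highest nuclear member by mean was Ndufb9, an accessory subunit, with 49.7 FPKM in old KO, 62.1 in old WT, 44.6 in young KO and 38.8 in young WT. The lowest was Ndufb4, another accessory subunit, with 0.712, 1.19, 1.18 and 0.885. Of the subunits on the electron path, 2 lay between these levels. Ndufs1, which carries iron-sulfur clusters, had 8.38 in old KO, 8.96 in old WT, 8.35 in young KO and 7.11 in young WT. Ndufv1, which binds NADH and FMN, had 6.81, 8.86, 7.99 and 7.86.

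Complex II, succinate dehydrogenase, also works in the citric acid cycle. Sdha, its flavoprotein, had 37.3 FPKM in old KO, 44.5 in old WT, 33.2 in young KO and 33.1 in young WT. Sdhb, the iron-sulfur subunit, had 32.7 in old KO, 27.2 in old WT, 28.9 in young KO and 22.5 in young WT, higher in KO at each age. The membrane anchor Sdhc had 12.6, 14.5, 11.99 and 12.4 and was the lowest of the complex. The other anchor, Sdhd, was the highest, with 58.0 in old KO, 73.1 in old WT, 55.3 in young KO and 68.8 in young WT, lower in KO at each age.

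In complex III the Rieske iron-sulfur gene Uqcrfs1 stood highest by mean, with 54.4 FPKM in old KO, 50.7 in old WT, 42.1 in young KO and 39.0 in young WT. Uqcrc2, an accessory subunit, was above it in young KO at 46.3. Uqcr11, a small accessory subunit, stood lowest, with 8.35, 8.84, 4.47 and 3.26. Uqcrc1, which does not carry electrons, had 31.6, 35.0, 35.6 and 31.3, with no order by age. Uqcr11 and Uqcrfs1 were thus higher in both old libraries than in both young ones, and Uqcrc1 was not.

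Complex IV held the highest nuclear member, Cox8a, the form of the small subunit VIII found in most tissues, with 335 FPKM in old KO, 290 in old WT, 147 in young KO and 167 in young WT. The muscle form Cox8b and the testis form Cox8c are in none of the files. Cox4i1, the common form of subunit IV, had 39.6, 30.8, 17.0 and 14.0, while the hypoxia form Cox4i2 was listed only in young WT, at 0.841, and was the lowest nuclear member by mean, with unlisted libraries at 0.5. Cox6a1 had 19.2, 19.5, 15.8 and 17.7, against 1.17, 0.587, 0.994 and 1.44 for the muscle form Cox6a2. The ubiquitous forms thus stood well above the muscle forms.

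Cox6b1 had 119 FPKM in old KO, 119 in old WT, 70.5 in young KO and 61.2 in young WT, against 1.88, 3.31, 3.73 and 4.18 for the testis form Cox6b2. Cox7a2 had 58.9, 68.2, 53.0 and 48.8, and the supercomplex factor Cox7a2l had 79.6, 88.2, 55.9 and 51.9. The muscle form Cox7a1 had 1.72, 0.626, 0.928 and 0.537. Ndufa4, named for complex I but a subunit of complex IV, had 20.8, 17.5, 7.52 and 6.28, and its hypoxia-linked relative Ndufa4l2 is not listed. Cox5a, a nuclear subunit on the matrix side, had 72.2, 62.1, 43.3 and 42.7, and Cox5b, which binds zinc, had 4.64, 3.23, 2.77 and 2.99. Cox5b may share reads with a pseudogene named in RefSeq, Cox5b-ps.

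In complex V the catalytic alpha and beta subunits stood highest. Atp5a1 had 114 FPKM in old KO, 110 in old WT, 94.1 in young KO and 82.3 in young WT, and Atp5b had 107, 112, 84.8 and 81.6. Of the 3 genes for the proton-carrying c ring, which make the same mature protein, Atp5g3 had 22.4, 19.8, 14.2 and 13.3. Atp5g1 had 1.53, 1.91, 2.14 and 1.53, and Atp5g2 was listed only in the young libraries, at 1.33 in young KO and 1.16 in young WT. Most c subunit RNA per length thus came from Atp5g3. The lowest member of the complex by mean, with its unlisted library at 0.5, was Atp5k, listed at 0.682 in old WT, 0.809 in young KO and 0.820 in young WT. Atp5k has 4 pseudogenes named in RefSeq, with which it may share reads, so its low value is uncertain.

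**Figure D3:**
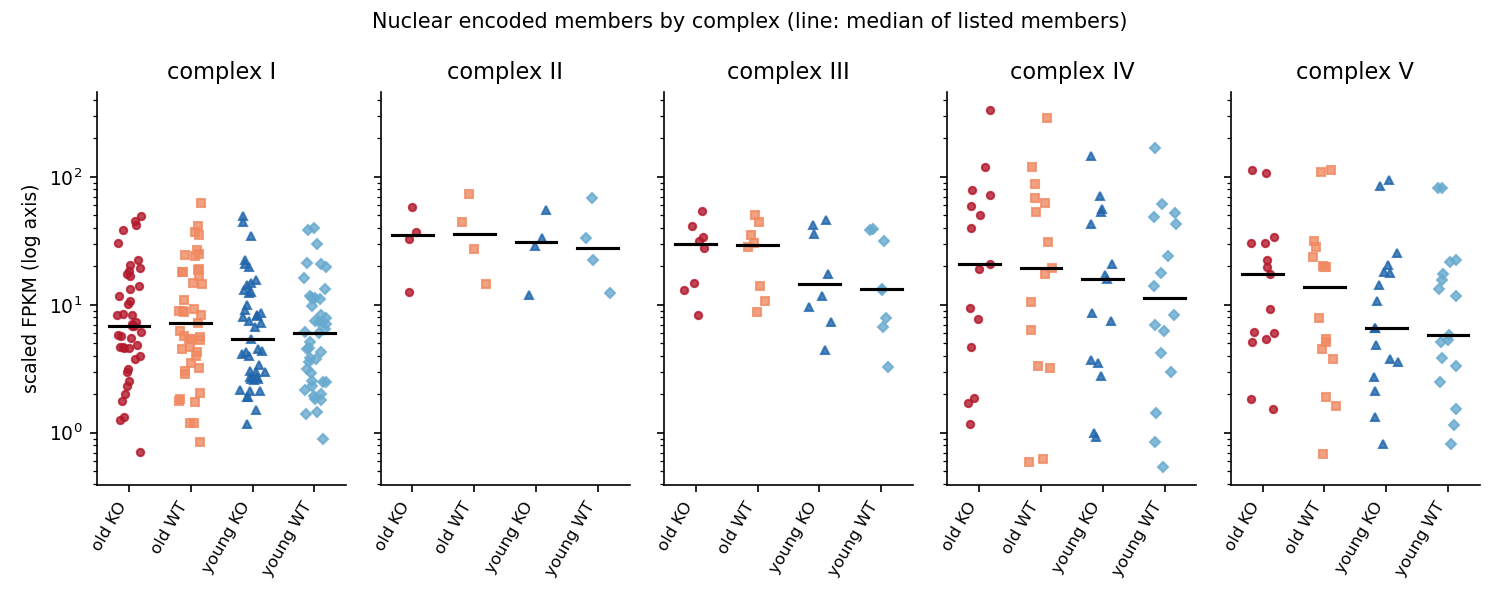
Scaled FPKM (vertical, log axis) of nuclear members of complexes I to V, 1 point per listed member and library, with the median of listed members as a line. Columns run old KO, old WT, young KO, young WT; Cox8a is the top point of complex IV, at 335, 290, 147 and 167 FPKM.

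The old KO library was first set against old WT. Nuclear members lay on both sides of 0: 43 of 85 measured members (88 in all) were above 0, against 51.3% of 12493 genes, and their median difference was 0.04, beside 0.01 over all genes, and turned to -0.054 when libraries were scaled to a common sum of other genes. At 1.5-fold, 1 nuclear member was higher (Cox7a1, at low level) and 1 was lower (Ndufs6), where 5.63% and 6.41% of all genes were. Of the 13 mitochondrial genes 9 were above 0, with a median of 0.19 (0.082 with the common sum), and at 1.5-fold mt-Nd1 was higher and mt-Nd4l lower. Of the 5 mitochondrial genes outside the copied span 3 were above 0 and 2 below, with a median of 0.107. At 2-fold the members were Ndufs6 and mt-Nd4l, 2 of 98, where 4.30% of all genes were in either direction.

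Ndufs6 (chromosome 13, 73319874 to 73328542), a zinc-binding accessory subunit of the complex I matrix arm, had 10.6 FPKM in old KO and 24.0 in old WT, a difference of -1.10. Its values in young KO and young WT were 12.4 and 9.83, so old WT was the library that stood high. RefSeq names a copy, Ndufs6b, with which it may share reads. Ndufs4, an accessory subunit without which mouse complex I is unstable, had 14.0 in old KO and 18.9 in old WT, a difference of -0.41. Ndufa1, on chromosome X, had 18.3 in old KO and 24.5 in old WT, a difference of -0.40. Atp5o, which joins the head of the ATP synthase to its stalk, had the largest positive difference among nuclear members at 5 or more, with 34.0 in old KO and 23.6 in old WT, a difference of 0.51. Its listed locus of 247290 bases overlaps Itsn1, Donson, Cryzl1 and Gm10785, so its value is uncertain. Cox4i1, whose locus overlaps Emc8, differed by 0.35, and Atp5l, a membrane subunit of the ATP synthase, by 0.35, with 5.11 in old KO and 3.79 in old WT. RefSeq names 2 pseudogenes, Atp5l-ps1 and Atp5l-ps2, and listed Atp5l-ps1 had 2.73 in old KO and 1.096 in old WT, so Atp5l is uncertain.

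By complex, nuclear medians in old KO were -0.03 for complex I, -0.22 for complex II, -0.004 for complex III, 0.20 for complex IV and 0.13 for complex V. In complex IV 8 of 15 measured members were above 0 and 7 below. The muscle forms Cox6a2 (0.452) and Cox7a1 (0.74), both at low level, were among the 8, so that median rests in part on them. Mitochondrial medians were 0.11 for complex I, 0.19 for the complex III gene, 0.22 for complex IV and 0.25 for complex V. mt-Nd1 differed by 0.59, mt-Co3 by 0.48 and mt-Nd3 by 0.46, while mt-Nd6 differed by -0.38 and mt-Co2 by -0.36. The mitochondrial genes therefore did not share a direction. Beside this comparison, neutrophil and monocyte markers were higher in old KO for 13 of 13 genes, with a median of 1.78, and plasma and B cell markers were lower for 10 of 11, with a median of -2.33. Their part in the result was not tested.

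In young cells the mitochondrial genes lay below 0 and the nuclear ones, as scaled here, mostly above it. Of 13 mitochondrial genes 12 were lower in young KO and 1 was higher, with a median of -0.34, where 50.9% of 12408 genes were above 0. Nuclear members were above 0 for 56 of 85 measured, with a median of 0.10, beside 0.01 over all genes, and without scaling their median was -0.01. Apart from mt-Nd4l the mitochondrial differences were modest, between -0.51 for mt-Nd1 and 0.03 for mt-Co2, and none passed 1.5-fold. With the chromosome 1 loci added all 13 genes were lower, mt-Co2 turning to -0.077, and mt-Nd3 passed 1.5-fold at -0.602. In that count the young KO value of mt-Nd4l was Gm10222 alone. mt-Atp6 differed by -0.49, mt-Cytb by -0.40, mt-Atp8 by -0.36, mt-Nd5 by -0.35, mt-Nd6 by -0.34 and mt-Nd4 by -0.32. mt-Co1, mt-Co3, mt-Nd2 and mt-Nd3 differed by between -0.20 and -0.12. The 5 genes outside the copied span were all lower, with a median of -0.35, and so were the 7 chromosome 1 loci, with a median of -0.41.

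At 1.5-fold, 1 nuclear member was higher in young KO (Ndufaf4) and 1 was lower (Cox7c), where 4.14% and 3.61% of all genes were. At 2-fold only mt-Nd4l qualified among 98 measured members, where 1.72% of all genes did. Cox7c (chromosome 13, 86044816 to 86046904), a small complex IV subunit, had 3.52 FPKM in young KO and 6.996 in young WT, a difference of -0.82. RefSeq names a pseudogene, Cox7c-ps1. Ndufb5, whose locus overlaps Mrpl47, had 4.13 in young KO and 6.19 in young WT, a difference of -0.49, and Ndufs4 had 8.59 and 11.2, a difference of -0.35. Ndufa6, of the LYR family, had 10.1 in young KO and 6.46 in young WT, a difference of 0.57. Ndufa1 had 7.26 and 5.13, a difference of 0.43, and Uqcr10, a small complex III subunit, had 17.6 and 13.1, a difference of 0.39. Ndufaf4, which helps to build complex I, had 4.36 in young KO and 1.80 in young WT, a difference of 0.94.

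By complex, nuclear medians in young KO were 0.08 for complex I, -0.02 for complex II, 0.22 for complex III, -0.03 for complex IV and 0.10 for complex V. In complex III 7 of 8 were above 0, and the exception was Uqcrb. Beside this comparison all 14 erythroid markers were higher in young KO, with a median of 0.79, and Hbb-bs had 219 FPKM in young KO and 46.6 in young WT. Neutrophil and monocyte markers were lower for 8 of 9 measured. Their part in the result was not tested.

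**Figure D4:**
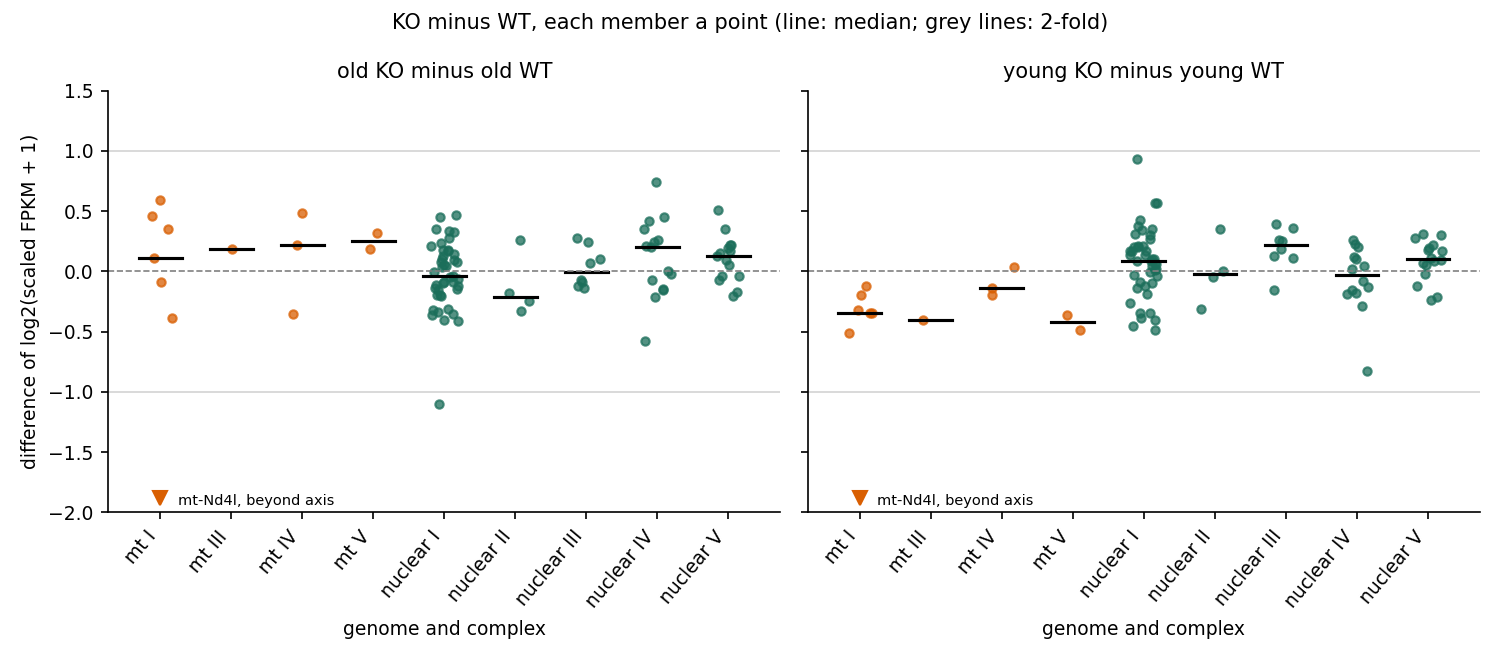
Difference of log2(scaled FPKM + 1), KO minus WT (vertical), for mitochondrial (mt) and nuclear members by complex (horizontal), old at left and young at right; points are genes, black lines medians. As deposited, mitochondrial points other than mt-Co2 (-0.077 with its copy added) lie below 0 in young cells and on both sides in old cells; a triangle marks mt-Nd4l, not listed in KO.

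Both KO comparisons, which use different libraries, were then read together at a difference of at least 0.25, a limit chosen after the values were seen. Of 55 nuclear members at 5 FPKM or more at both ages, 6 (10.9%) differed in 1 direction at both, where 412 of 6829 genes (6.03%) did. Sdhd differed by -0.33 in old KO and -0.31 in young KO, and Ndufs4 by -0.41 and -0.35. Sdhb differed by 0.26 and 0.35, Cox4i1 by 0.35 and 0.26, Atp5l by 0.35 and 0.30, and Uqcrh, the acidic hinge protein of complex III, by 0.28 and 0.26. Atp5l and Uqcrh each have 2 pseudogenes named in RefSeq, with which they may share reads. Complex II thus held members on both sides, an iron-sulfur subunit that was higher and a membrane anchor that was lower. Among mitochondrial genes mt-Nd6 differed by -0.38 and -0.34, and mt-Nd4l was listed at neither age in KO. For mt-Nd6, counting error alone was 5.20% of its value in old KO, 4.55% in old WT, 4.06% in young KO and 3.36% in young WT. For a 0.5 kb transcript at FPKM 20 the 95% counting factor is 1.23 in old and 1.34 or 1.33 in young libraries, and longer or higher transcripts have smaller ones. At FPKM 5 it is 1.51 in old and 1.79 or 1.76 in young libraries. Atp5l, near FPKM 5, had KO to WT ratios of 1.35 in old and 1.28 in young cells, smaller than these. Uqcrh, Cox4i1 and Ndufs4 were below FPKM 20 in young cells. Their young ratios of 1.22, 1.21 and 0.766 lay within the factor at FPKM 20. In old cells Uqcrh, also below FPKM 20, had a ratio of 1.23.

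The age comparisons share libraries with the KO comparisons and are therefore given as values only. Age, sex and the spacing of the values cannot be told apart here. Nuclear members lay mostly above 0: 64 of 86 measured between old KO and young KO, with a median of 0.30, where 50.5% of 12546 genes did, and 68 of 85 between old WT and young WT, with a median of 0.33, where 49.7% of 12569 genes did. The medians over all genes were 0.005 and -0.002. With the common sum the nuclear medians were 0.11 in KO and 0.22 in WT. At 1.5-fold, 29 nuclear members were higher and 4 lower in old KO, where 12.6% and 7.85% of all genes were. In old WT 24 were higher and 3 lower, where 10.1% and 5.86% were. At 2-fold, 8 were higher in old KO than in young KO and 1, Ndufaf4, was lower, where 7.23% of all genes differed in either direction. Between old WT and young WT 11 differed, all higher in old WT, where 5.59% of all genes differed.

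Ndufa1 had 18.3 FPKM in old KO and 7.26 in young KO, a difference of 1.23. In old WT and young WT it had 24.5 and 5.13, a difference of 2.05, the largest of any nuclear member in either age comparison. Ndufa4 had 20.8 in old KO and 7.52 in young KO, a difference of 1.36, and 17.5 in old WT and 6.28 in young WT, a difference of 1.35. Uqcrb, which lies at a coenzyme Q site of complex III, had 33.9 in old KO and 11.8 in young KO, a difference of 1.45. In old WT and young WT it had 28.4 and 13.2, a difference of 1.05. Cox7b, on chromosome X, differed by 1.23 in KO and 1.12 in WT, and Ndufa6 by 0.70 in KO and 1.40 in WT. Cox4i1 differed by 1.17 in KO and 1.08 in WT, and Cox8a by 1.19 in KO and 0.79 in WT. Ndufv3 and Atp5e also passed 2-fold in KO, and Uqcr10, Uqcr11, Ndufa2, Ndufb10 and Ndufs6 in WT.

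Lower members were few. Ndufa13, whose locus overlaps Tssk6 and Yjefn3, had 4.62 in old KO and 8.15 in young KO, a difference of -0.71, and differed by -0.83 in WT. Ndufs7, a core matrix arm subunit, differed by -0.51 in KO and -0.26 in WT, and Atp5l by -0.32 in KO and -0.36 in WT. Ndufaf4 had 1.26 in old KO and 4.36 in young KO, a difference of -1.25. By complex, nuclear medians between old KO and young KO were 0.19, 0.12, 0.53, 0.58 and 0.27 for complexes I, II, III, IV and V. Between old WT and young WT they were 0.29, 0.23, 0.68, 0.50 and 0.37. Accessory subunits of complex I had a median of 0.43 in KO and 0.41 in WT, while its 7 core matrix arm subunits had 0.01 and 0.26 and its 7 assembly factors 0.00 and -0.11.

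Some other gene groups lay above 0 with age as well, and some did not. The cytosolic ribosomal protein genes (81 listed) had medians of 0.55 in KO and 0.49 in WT, 76 mitochondrial ribosomal protein genes 0.29 and 0.21, and proteasome genes (39 listed) 0.25 and 0.27. Genes for expression and upkeep of mitochondrial DNA had medians of 0.002 in KO and 0.034 in WT, coenzyme Q synthesis genes -0.055 and 0.065, and regulators of mitochondrial genes -0.013 and -0.057. Nuclear members with a locus under 5 kb had a median of 0.63 in KO, beside 0.05 over all genes of that length, and of 0.77 in WT, beside 0.00. Without Ndufa1, Ndufb11 and Cox7b, the X-linked members, the nuclear medians were 0.27 in KO and 0.30 in WT. Markers of other cells moved too. In old KO against young KO, erythroid markers were lower for 14 of 14 and neutrophil and monocyte markers higher for 13 of 13. In old WT against young WT, plasma and B cell markers were higher for 10 of 10 measured, with a median of 3.47. Their part in the result was not tested.

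Mitochondrial genes lay on different sides of 0 by complex, around medians of -0.36 over 12 genes in KO and -1.03 over 13 in WT. The 3 mt-Co genes were higher in old KO than in young KO, with a median of 1.304 (0.871 with the chromosome 1 loci added) and a difference of 2.71 for mt-Co3. The median of 6 measured mitochondrial complex I genes was -0.78 there, with -1.67 for mt-Nd6 and -1.55 for mt-Nd2, while mt-Nd3 differed by 0.99 and mt-Cytb by 0.35. Between old WT and young WT the mt-Co median was 1.70 (0.809 with those loci added), with 2.03 for mt-Co3. Of the 7 complex I genes 6 were lower in old WT, with a median of -1.44 over all 7, mt-Nd6 by -1.63, mt-Nd2 by -1.58 and mt-Nd1 by -1.46. The exception was mt-Nd3, at 0.33, which turned to -0.848 with its locus added. Between old KO and young KO mt-Nd3 was 0.292 with it. Both mt-Atp genes were lower in old WT, with a median of -1.15, and mt-Cytb differed by -0.24. At 2-fold, 4 of 12 mitochondrial genes differed in KO, 2 lower and 2 higher, and 10 of 13 in WT, 8 lower and 2 higher, where 7.23% of all genes in KO and 5.59% in WT did. With the loci added 5 of 13 differed in KO, 4 lower and 1 higher, and 9 of 13 in WT, 8 lower and 1 higher. Of the 4 lower in KO, 1 is mt-Nd4l, not listed there, whose value of -2.769 is that of Gm10222 alone. The 5 genes outside the copied span had a median of -0.98 in KO and -1.46 in WT.

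**Figure D5:**
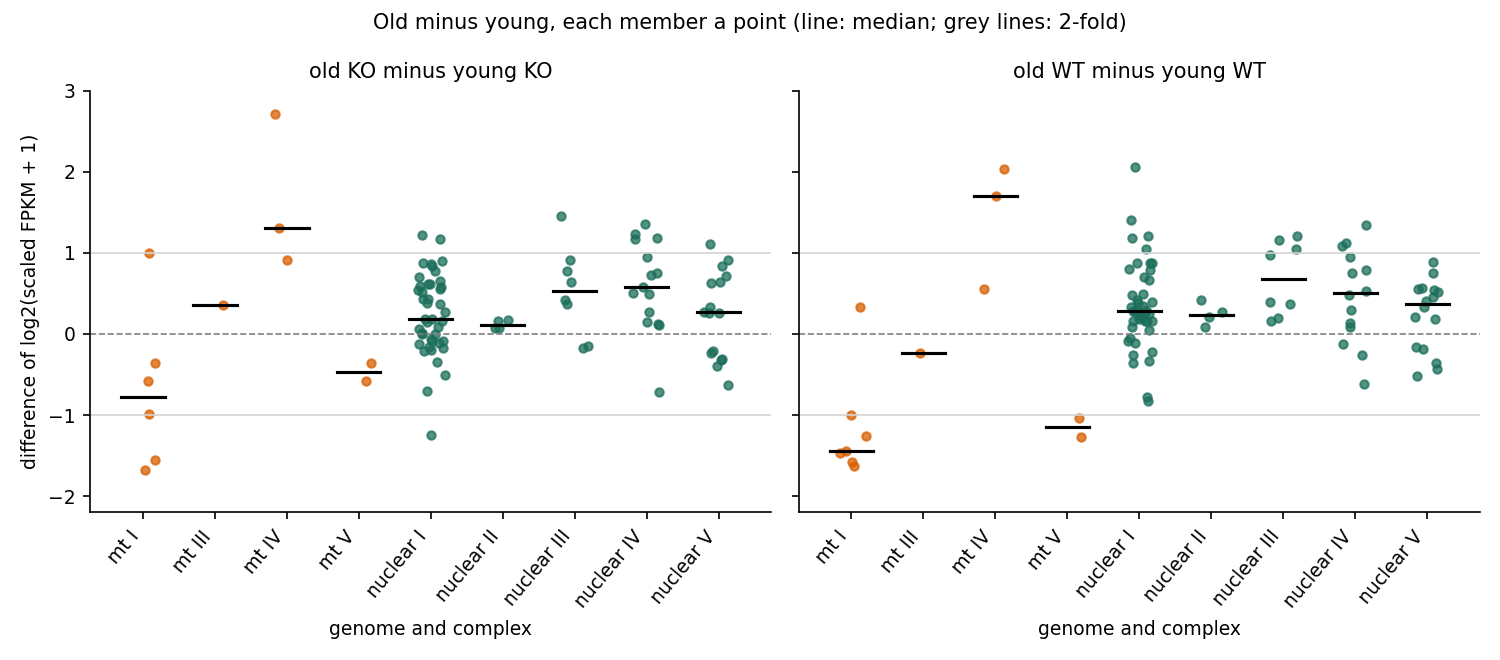
Difference of log2(scaled FPKM + 1), old minus young (vertical), for mitochondrial (mt) and nuclear members by complex (horizontal), KO at left and WT at right; points are genes, black lines medians. Complex IV genes of mitochondrial DNA lie above 0, with medians of 1.304 in KO and 1.70 in WT, and most complex I ones below 0, with medians of -0.78 and -1.44.

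The summed mitochondrial FPKM was 2.80 times the summed nuclear FPKM in old KO, 2.42 times in old WT, 1.80 times in young KO and 2.24 times in young WT. The order turned when the 3 mt-Co genes were set aside: 0.216 in old KO, 0.217 in old WT, 0.435 in young KO and 0.678 in young WT. The sums behind the ratio were 5891, 5043, 2673 and 3184 FPKM for mitochondrial members and 2107, 2085, 1487 and 1423 for nuclear ones. KO stood above WT in old cells and below it in young cells on the first measure. With the chromosome 1 loci added that measure was 3.04 in old KO, 2.62 in old WT, 2.42 in young KO and 3.06 in young WT, and young WT stood highest. Without the mt-Co genes, old KO and old WT were nearly level and young KO lay below young WT.

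Genes that serve the respiratory chain came from lists outside the name rule. Of 43 genes for expression and upkeep of mitochondrial DNA, the median difference was 0.05 in old KO, with 25 above 0, and 0.10 in young KO, with 27 above 0, where 51.3% and 50.9% of all genes were. At 1.5-fold 1 of them, Rnaseh1, was higher in old KO, where 5.63% of all genes were, and 0 differed in young KO, where 4.14% were higher and 3.61% lower. Tfam, which packs and transcribes mitochondrial DNA, had 8.85 FPKM in old KO, 9.48 in old WT, 6.93 in young KO and 7.12 in young WT. Polrmt, the mitochondrial RNA polymerase, had 5.53, 5.17, 4.82 and 5.42. Lrpprc, which keeps mitochondrial messenger RNAs stable, had 14.7, 14.9, 16.6 and 13.6. In young KO these 3 differed by -0.03, -0.14 and 0.27. Rnaseh1, which cuts RNA in RNA-DNA hybrids, had 8.66 in old KO and 4.50 in old WT, a difference of 0.81.

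Carriers of electrons were measured too. Cycs, cytochrome c, had 5.10 FPKM in old KO, 3.99 in old WT, 3.23 in young KO and 3.30 in young WT. Cyc1, cytochrome c1 of complex III, had 38.6, 41.6, 30.3 and 26.9. Among 45 assembly factors outside the name rule the medians were -0.01 in old KO and 0.04 in young KO. Tmem70, which aids assembly of the ATP synthase, had 8.70 in young KO and 3.91 in young WT, a difference of 0.98, and 3.95 in old KO and 3.74 in old WT. Citric acid cycle genes had a median of -0.06 in old KO, with 7 of 21 above 0, and 0.04 in young KO, with 13 of 21 above 0. Coenzyme Q synthesis genes had medians of -0.05 and 0.03.

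Glycolysis genes had a median of 0.21 in old KO, with 12 of 15 measured above 0, where 51.3% of all genes were with a median of 0.01, and 0.03 in young KO. Gapdh had 19.3 FPKM in old KO and 11.5 in old WT, a difference of 0.70. Of 11 listed regulators, 7 were above 0 in old KO, with a median of 0.02, and 4 in young KO, with a median of -0.13. Creb1, a transcription factor with targets among metabolic genes, had 4.65 in young KO and 10.03 in young WT, a difference of -0.96. The coactivator gene Ppargc1b had 3.27, 3.24, 2.11 and 3.04 FPKM in old KO, old WT, young KO and young WT, and Ppargc1a was not listed.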

How the data were processed

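Total RNA of sorted LSK cells was sequenced, 1 library per group, and groups came from the titles and labels. The deposited files hold 1 FPKM per gene, made by the authors, with identifiers and loci per the file headers. For software, the submitters' processing notes name mm10 (GRCm38), HISAT2 2.0.4 and StringTie 1.3.0 among the tools, with no role or order. Strand use and the handling of reads with several matches are not given in the sources used here. Files list only FPKM of 0.5 or more, seen in the values. Depth was read from the spacing of FPKM times length over loci under 1500 bp; 75.1% of such values in old KO, 73.7% in old WT, 68.1% in young KO and 67.2% in young WT lay within 0.1 steps of a whole multiple.

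Median-of-ratios factors over the 12158 genes listed in all 4 files put the libraries on a common scale (0.974 for old KO, 0.982 for old WT, 0.982 for young KO, 1.07 for young WT). Genes that reached 1 in either library of a pair were compared on log2(scaled FPKM + 1), with counts at 1.5-fold and 2-fold and no test, since 1 library per group allows none. Of 14468 identifiers 14382 were in a table of symbols, and 18 symbols turned into dates were restored. Named were all mitochondrial and Sdh genes, the highest and lowest nuclear member of each complex, up to 3 largest differences each way at 5 or more, members past 2-fold, isoform groups, fixed core genes and, from other lists, 2 genes per KO comparison. Members and lists were chosen with earlier results of these data known, the promoters, the chromosome 1 loci, Ndufaf4 in young KO and the genes at both ages after the values were seen. The steps were tested on simulated data. Some genes are not reported here by name. Alternatives changed scaling, pseudocount, unlisted values, filters and members. Python 3.11.15, pandas 2.3.3, numpy 2.4.6 and matplotlib 3.10.9 were used.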

Additional observations from a re-analysis of the deposited data

Results flagged for a closer look

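The KO difference had opposite signs at the ages for the mitochondrial genes as a group, with a median of 0.19 in old cells and -0.34 in young cells. Over the 5 genes outside the copied span the medians were 0.107 and -0.349, with 3 of the 5 above 0 in old cells. Whether the ages differ was not tested, since each group was 1 library. Single nuclear members did the same. Ndufa1 differed by -0.40 in old KO and by 0.43 in young KO. Cox7c differed by 0.26 in old KO and by -0.82 in young KO. Ndufs6 differed by -1.10 in old KO and by 0.31 in young KO. For a 0.5 kb transcript at FPKM 5 the counting factor is 1.51 in old and 1.79 or 1.76 in young libraries. The old Cox7c ratio of 1.23 and the young Ndufa1 ratio of 1.41, both a little above FPKM 5, were smaller. The young Ndufs6 ratio of 1.26, below FPKM 20, lay within the factor of 1.34 or 1.33 at FPKM 20. For each gene the sign at that age is therefore uncertain. No share of all genes with opposite signs is given, and none of these reversals was tested.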

How the results depend on the processing

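No paired analysis was possible because each group was 1 library. A median counted as moved past 0.1. The mitochondrial median in old KO was 0.082 with a common sum over genes other than immunoglobulin, mitochondrial and 2 predicted ones. The small nuclear median in old KO turned to -0.054 with that sum, to -0.035 over genes at 5 or more and to -0.021 over subunits only. Without scaling, the mitochondrial median in young KO was -0.46 with 0 members above 0, and the nuclear one turned to -0.01. Between old WT and young WT the mitochondrial median was -1.15 without scaling, -1.14 with the common sum, -1.14 over genes listed in all 4, -1.14 without mt-Nd4l, -1.14 with shared RNAs merged, -1.44 with the chromosome 1 copies added and -1.46 outside the copied span. The nuclear median there was 0.22 without scaling, 0.22 with the common sum and 0.23 with a pseudocount of 5. Between old KO and young KO the mitochondrial median was -0.48 with upper-quartile scaling, -0.56 with the common sum, -0.58 with copies added and -0.98 outside the span, and the nuclear one 0.19, 0.11 and, at 5 or more, 0.42. The median with copies added took Gm10222 alone as mt-Nd4l. Ratios of geometric means were 8.17 in old KO, 7.42 in old WT, 10.5 in young KO and 13.5 in young WT. With copies added the ratio of sums was 3.04 in old KO, 2.62 in old WT, 2.42 in young KO and 3.06 in young WT. The causes were not tested. The copy alternatives were chosen after seeing the data. Over scaling, pseudocount, unlisted values and filters, of 427 values of single named members 400 kept their side of the fold limit, 27 fell below it and 0 turned round. Part of this count was fixed in advance. The settings for unlisted values and filters cannot change the value of a member listed in all 4 libraries. Members under 2-fold from the start counted as kept if they stayed under it.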
